A study of Drosophila melanogaster with 10 samples.

Results

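The response shared by 4 mutant genotypes was read in whole third-instar larvae of *Drosophila melanogaster*, as the mean of these genotypes against wild type, each genotype weighted equally. Genes were then kept where all 8 mutant libraries lay on the same side of both wild type libraries. Of 10585 genes with enough reads to test, 726 met both conditions, 375 higher and 351 lower in the mutants, and are called the shared genes here. The files hold 17735 gene identifiers in all. RNA sequencing covered 5 genotypes with 2 libraries each, all labelled with the strain y1w1118. Wild type carries dCTCFwt. Every mutant carries dCTCFdeltaCP, which changes the part of CTCF that interacts with CP190: the CTCF mutant carries it alone, the CTCF Su(Hw) mutant with SuHwdelta114, the CTCF Pita mutant with PitadeltaCP1, and the triple mutant with both. Larvae were kept at 25 °C, and 100 mg of larvae went into each RNA extraction. The sources used here do not give sex, age in hours, zygosity or the number of independent lines per allele. No genotype has an intact CTCF together with a Su(Hw) or Pita mutation, so what the mutants share beyond the CTCF allele, such as the history of the stocks, cannot be told apart from that allele.

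CTCF, Su(Hw) and Pita are zinc finger proteins that bind DNA at insulators and promoters and recruit CP190, a cofactor without a DNA site of its own. Such architectural proteins limit which enhancers reach a promoter and help to set the borders of chromatin domains. In the third instar the larva feeds and stores fat, and a pulse of the steroid ecdysone at its end starts wandering, glue synthesis in the salivary glands and the preparation of the pupal cuticle. A whole larva mixes all these tissues, so fewer cells of a type and less RNA per cell cannot be told apart.

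Each library held 5670793 to 8220126 reads assigned to genes. These were 25.6% to 39.8% of all its reads, and 50.9% to 65.5% mapped to more than 1 place. The share of such reads was largest in the CTCF libraries (65.5% and 63.3%) and smallest in the CTCF Su(Hw) libraries (50.9% and 51.2%). Its part in the differences between genotypes was not tested. Levels are in CPM, which divides reads by library size after TMM scaling in edgeR, and differences as log2 fold changes with their standard error (SE). A single read stood for 0.0927 to 0.289 CPM. The su(Hw) gene stood at 25.2 and 26.3 CPM in wild type and at 386 to 571 in the genotypes labelled with its mutation, and pita at 31.5 and 24.1 against 152 to 218 in those labelled with its own, so RNA of each gene differed in the genotypes labelled for it. Reads over a whole gene do not test for the loss of a part, in su(Hw), pita or CTCF. Defining markers of neurons (elav), muscle (Mhc), hemocytes (Hml), fat body (Lsp1beta), salivary gland (Sgs3), testis (Mst87F) and gut (Jon65Ai) were detected in every library. The CTCF Su(Hw) libraries differed by little more than counting error (chi-square per degree of freedom 1.785, against 14.35 to 41.41 in the other groups), and with them summed into 1 library the shared genes numbered 539. Wild type 1 and 2 stood apart from each other in the salivary glue and Osiris genes. Mean log2 CPM of the salivary glue genes was 5.56 and 2.98 there and 6.01 to 7.69 in the mutants. That of the Osiris genes was 3.82 and 0.93 against -0.98 to 0.88. The wild type libraries were close in the means of the ecdysone response genes (3.81 and 3.87) and the cuticle protein genes (5.18 and 5.11).

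In edgeR's quasi-likelihood test at an adjusted p of 0.05, the mean of the mutants differed from wild type for 2100 genes (19.8% of those tested), with 870 higher (8.22%) and 1230 lower (11.6%). All 8 mutant libraries lay on one side of wild type for 1053 genes (9.95%), 515 above and 538 below. The 726 shared genes are the overlap (6.86% of all tested), made of the 375 higher (3.54%) and the 351 lower (3.32%). Both conditions use the same values, so being on one side adds no independent support to a call. With library totals in place of TMM factors, which move the median of all genes from -0.02 to 0.12 on the log2 scale, 131 genes were higher and 288 lower, and 217 of them are among the 726. Leaving out wild type 1 or 2 gave 452 and 410 shared genes, of which 282 and 267 are among the 726.

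The shared genes were mostly modest in size and of every level of expression. Their median log2 fold change was 0.92 among the higher genes and -0.80 among the lower ones, and 438 changed by less than 2-fold in the mean. In 102 of them, 80 higher and 22 lower, each of the 4 genotypes was at least 2-fold from wild type. Of the 726, 706 are protein coding and 634 reached 5 CPM in wild type or in the mutant mean. The higher genes were longer than the lower ones, with a median exon length of 3196 against 1680 bases and 1996 over all genes tested. Their median wild type level was 12.6 CPM, against 28.3 for the lower genes and 12.97 for all genes.

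The mean can hide differences among genotypes, and a model that treats the 8 mutant libraries as 1 group counts those differences as noise. In that model 8 genes passed, of which Cpr78E, CG7255 and Pxd were higher and CG31219, Osi9, CG9837, CG13230 and kn lower. Cpr78E, a member of the chitin-binding cuticle protein family (3L, 21666452 to 21666980), stood at 6.70 and 1.72 CPM in wild type, 119.5 and 65.7 with CTCF altered alone, 85.8 and 92.1 with Su(Hw) added, 157 and 117 with Pita added, and 97.7 and 119 with both added. The lowest mutant library was thus well above the higher wild type library, and the gene rose by 4.65 on the log2 scale (SE 0.42, adjusted p = 4.36e-05). Without wild type 1 or 2 its change was 5.92 or 3.95. No difference among the 4 mutants passed the test for Cpr78E (adjusted p = 0.341).

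Pxd, which encodes a peroxidase (3R, 17014576 to 17027987), was the most level of the higher genes. It stood at 14.4 and 12.2 CPM in wild type, 33.3 and 27.3 with CTCF altered alone, 32.9 and 32.1 with Su(Hw) added, 32.4 and 28.9 with Pita added, and 32.0 and 32.4 with both added. All 8 mutant libraries were close to one another and above both wild type libraries, with a log2 fold change of 1.24 (SE 0.14, adjusted p = 0.000263). CG7255 behaved in a similar way, at 30.4 and 26.9 CPM in wild type and 71.0 to 106 in the mutants (log2 fold change 1.59, SE 0.13, adjusted p = 2.02e-05), though its genotypes differed from each other (adjusted p = 0.0288).

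CG31219 was close to lost in every mutant. The gene (3R, 19651018 to 19652430, overlapping CG6184) had 124 reads in wild type, at 10.6 and 9.24 CPM, against 0 reads in the CTCF mutant and 1 read in each of the other 3 genotypes. With 3 reads over the group in place of 0, it was at least 24.5-fold lower in the CTCF mutant. The ratio of scaled reads was 211 with Su(Hw) added (95% exact interval 37.1 to 8380), 183 with Pita added (32.2 to 7280) and 142 with both (25.0 to 5650), and these intervals cover counting error only.

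kn, the Collier transcription factor that patterns muscles, neurons and blood progenitors (2R, 14772650 to 14807061), stood at 4.74 and 6.58 CPM in wild type and 1.26 to 2.21 in the 8 mutant libraries. It fell by 1.80 on the log2 scale (SE 0.26, adjusted p = 0.00108), with genotype values of -1.92, -1.81, -1.70 and -1.77 in the CTCF, CTCF Su(Hw), CTCF Pita and triple mutants. These 4 values spanned 0.22, and the test among mutants gave an adjusted p of 0.974. CG9837 stood at 43.3 and 49.7 CPM in wild type and 6.42 to 15.9 in the mutants (log2 fold change -2.16, SE 0.15, adjusted p = 7.5e-06). CG13230, which overlaps CG13229, stood at 142 and 168 CPM against 26.5 to 60.2 (log2 fold change -1.91, SE 0.12, adjusted p = 3.96e-06). For both, the wild type libraries were the highest of all 10.

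**Figure D1:**
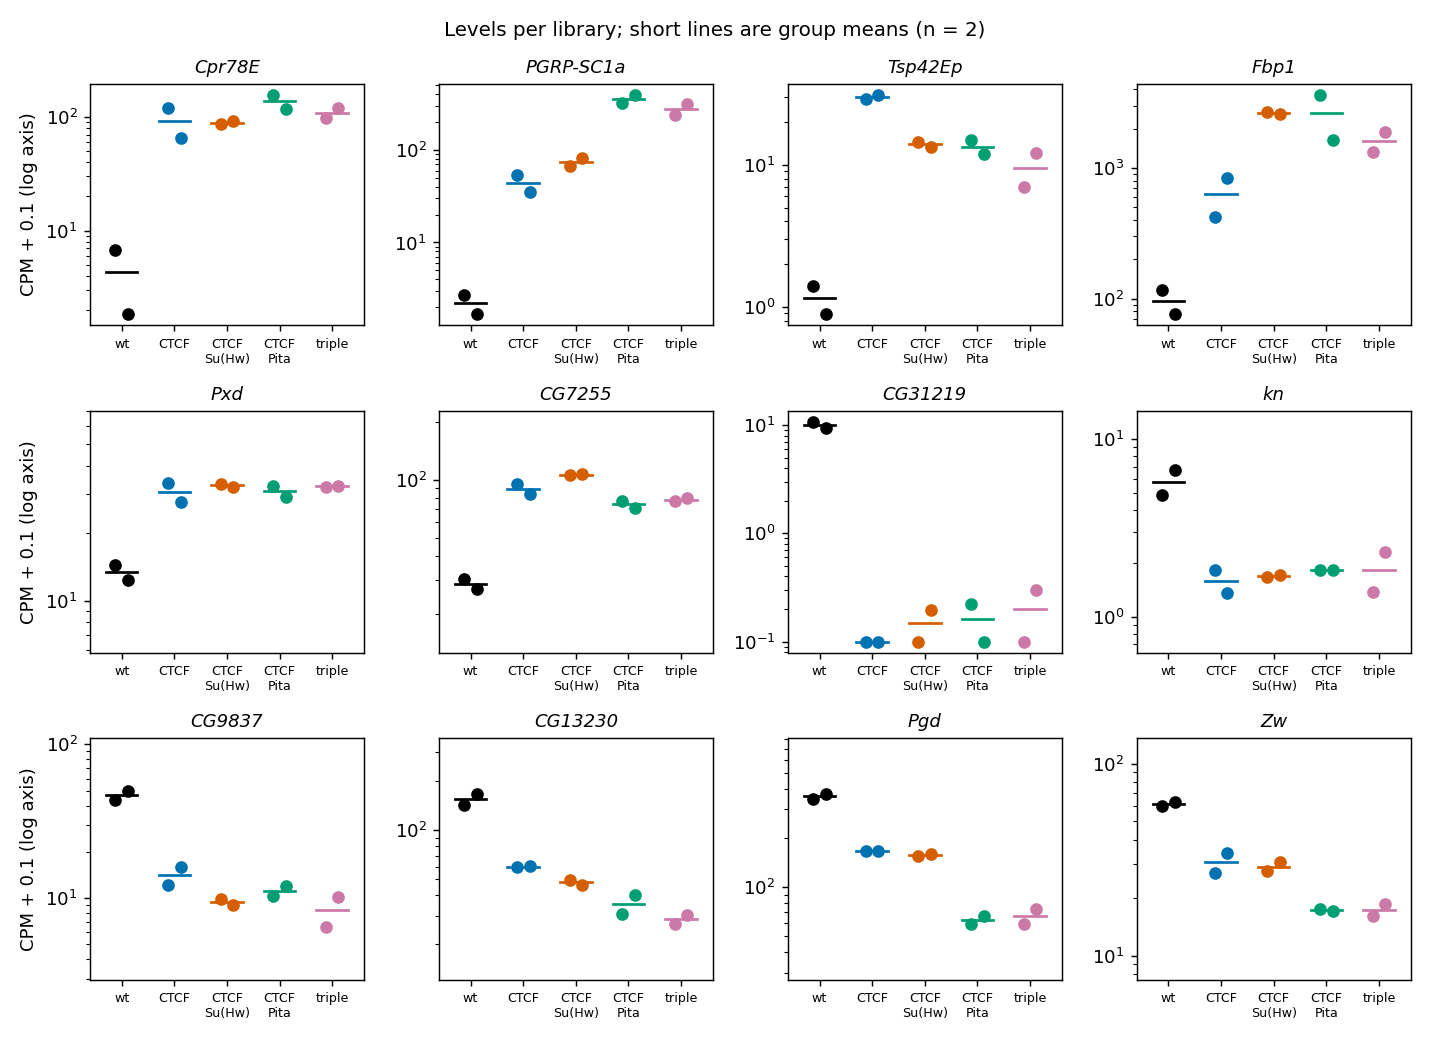
CPM plus 0.1 on a log axis for 12 shared genes, with 1 point per library, colours for the 5 genotypes and short lines for the means of 2 libraries. In each panel all 8 mutant points lie above, or all below, both wild type points; Pxd is level across the mutants, while Pgd and PGRP-SC1a step between genotypes.

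Genes were named by the size of the change in the genotype that moved least, which for several of them did not pass its own test against wild type. PGRP-SC1a, which encodes an amidase that cleaves bacterial peptidoglycan (2R, 8709733 to 8710320), stood at 2.61 and 1.57 CPM in wild type, 53.5 and 35.1 with CTCF altered alone, 67.7 and 81.0 with Su(Hw) added, 324 and 397 with Pita added, and 241 and 318 with both added. It rose by 6.01 (SE 0.31, adjusted p = 1.67e-06), and its libraries fell into a lower pair of genotypes without the Pita mutation and a higher pair with it (adjusted p among mutants = 1.49e-05). Its near copy PGRP-SC1b rose as well, from 4.57 and 0.940 CPM to at least 5.28 in every mutant library, with its highest values in the CTCF mutant (log2 fold change 2.79, SE 0.39, adjusted p = 0.000841). Reads that fit both copies could not be assigned, so the split between them is uncertain.

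The tetraspanin gene Tsp42Ep (2R, 7054405 to 7057548) rose from 1.31 and 0.783 CPM to 28.9 and 31.1 in the CTCF mutant and 6.85 to 14.9 in the other mutants (log2 fold change 3.82, SE 0.32, adjusted p = 2.95e-05). Here the CTCF mutant was the highest, unlike in most shared genes. NimC2, a receptor of the Nimrod family of phagocytosis genes, stood at 0.817 and 0.627 CPM in wild type and 2.02 to 35.6 in the mutants (log2 fold change 3.45, SE 0.85, adjusted p = 0.0174, and no longer called without either wild type library). SPH93, a serine protease homolog whose span overlaps CG5050, stood at 2.78 and 10.97 CPM against 17.7 to 47.2 in the first 3 mutants and 211 and 202 in the triple mutant (log2 fold change 2.82, SE 0.36, adjusted p = 0.000455). Amyrel, an amylase relative, stood at 0.817 and 1.10 CPM against 1.98 to 20.3 (log2 fold change 2.43, SE 0.38, adjusted p = 0.00176), with both CTCF Su(Hw) libraries highest. The lysozyme gene LysE stood at 34.8 and 11.1 CPM against 45.0 to 318 (log2 fold change 1.93, SE 0.52, adjusted p = 0.0244) and lost its call without wild type 2. The spans of Amyrel and LysE overlap gprs and mwh, in this order.

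Among the genes that fell most in the genotype that moved least were an acyltransferase, cuticle genes and a pair of dehydrogenases of the pentose phosphate pathway. Agpat2, which adds a fatty acid on the way to phospholipids and stored fat (2L, 8449691 to 8463994), stood at 105.5 and 108 CPM in wild type, 25.5 and 23.5 with CTCF altered alone, 39.2 and 38.7 with Su(Hw) added, 23.1 and 13.02 with Pita added, and 14.5 and 15.7 with both added. It fell by 2.25 on the log2 scale (SE 0.15, adjusted p = 7.5e-06), and every mutant library was far below both wild type libraries. Lcp3, an abundant larval cuticle protein (2R, 8435310 to 8436095), stood at 11600 and 11940 CPM in wild type and 3152 to 5374 in the mutants (log2 fold change -1.47, SE 0.14, adjusted p = 7.48e-05). The wild type libraries differed by little, and the 8 mutant libraries did not reach 50% of either. Cpr66D, of the same chitin-binding family as Cpr78E, was scarcer, at 7.02 and 3.92 CPM against 0.856 to 3.54 (log2 fold change -1.83, SE 0.36, adjusted p = 0.00581), and was not called without wild type 1.

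Other named lower genes have roles in signalling, transport and detoxification. cbt, the Cabut zinc finger transcription factor that responds to sugar and ecdysone, stood at 118 and 124 CPM in wild type and 35.2 to 69.7 in the mutants (log2 fold change -1.42, SE 0.14, adjusted p = 7.63e-05). The potassium channel gene SLO2 stood at 11.4 and 12.5 CPM against 7.23 and 5.31 in the CTCF mutant and 1.39 to 3.82 in the others (log2 fold change -2.08, SE 0.19, adjusted p = 4.8e-05). Ugt37A3, a glycosyltransferase of the detoxification system, stood at 325 and 244 CPM against 50.3 to 156 (log2 fold change -1.69, SE 0.14, adjusted p = 2.63e-05). In SLO2 the CTCF mutant moved least, whereas in Ugt37A3 the triple mutant did. Pldn, a subunit of a complex that forms lysosome-related organelles, stood at 4.90 and 5.80 CPM against 1.81 to 3.18 (log2 fold change -1.12, SE 0.24, adjusted p = 0.00945) and lost its call without wild type 2. CG10814 stood at 256 and 154 CPM against 9.06 to 82.4 (log2 fold change -2.79, SE 0.26, adjusted p = 6.56e-05). The spans of cbt, SLO2 and Pldn overlap ush, CG46298 and Sugb, in this order.

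**Figure D2:**
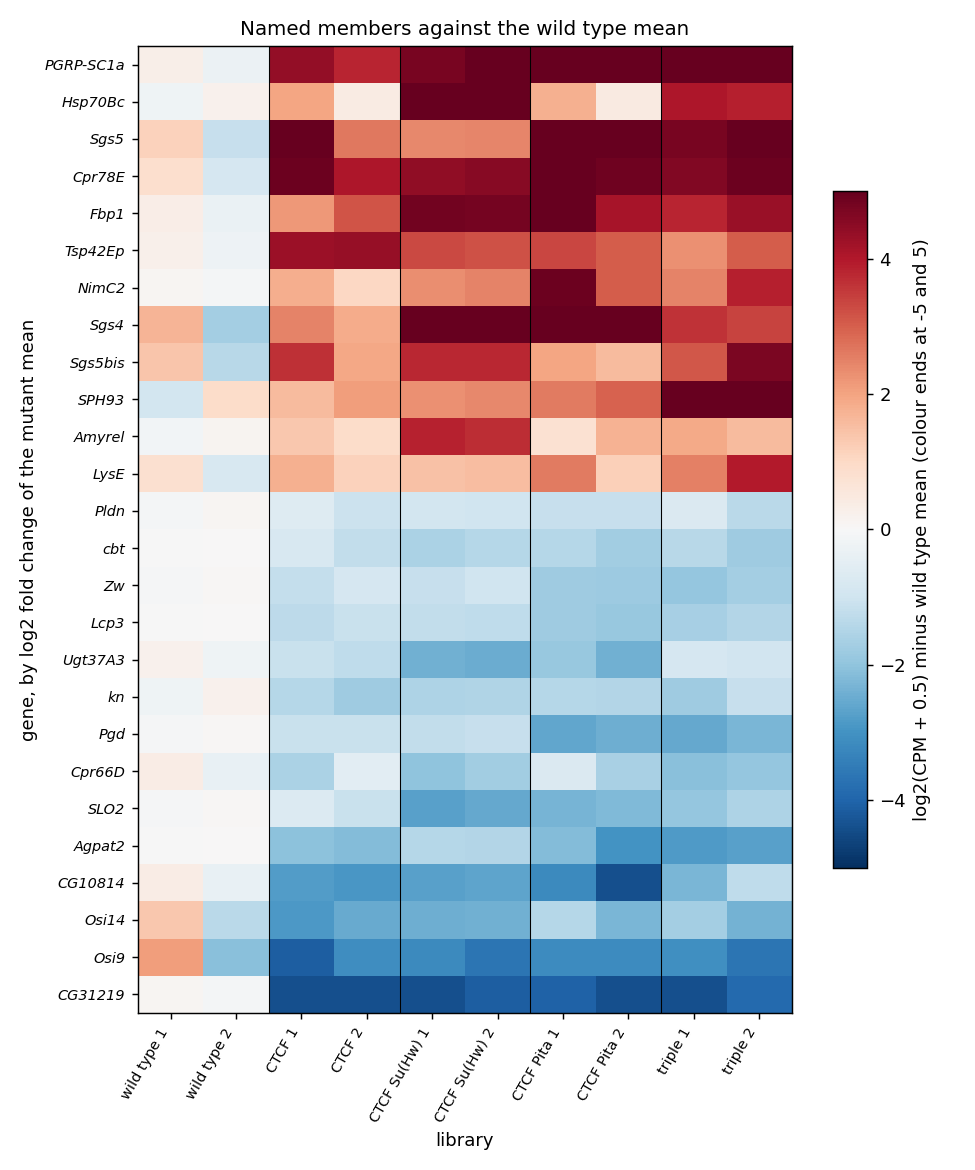
Difference in log2(CPM + 0.5) from the wild type mean for the 26 genes named by rule, in 10 libraries grouped by genotype; red is higher, blue lower, and the colour scale ends at -5 and 5. The wild type columns are pale except for the glue genes Sgs4, Sgs5 and Sgs5bis and the Osiris genes Osi9 and Osi14, where wild type 1 and 2 differ.

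Several enzymes that supply NADPH and carbon for fat synthesis were lower in the mean of the mutants. The pentose phosphate pathway oxidises glucose 6-phosphate and yields NADPH, which malic enzyme also makes and which fatty acid synthesis consumes. A list of 12 such enzymes was drawn up after Pgd and Zw had been seen, so its counts are a description. Of the 12, 9 were called lower (75%, against 11.6% of all genes) and none higher. The 6 shared genes (50%, against 6.86% of all genes) were Pgd, Zw, Taldo, CG8036, Men and Men-b. The median log2 fold change of the 12 was -0.82, against -0.02 over all genes tested. The median was -0.08 in the CTCF mutant and -0.44 to -1.27 in the other genotypes. Pgd, the 6-phosphogluconate dehydrogenase (X, 2145136 to 2148566, overlapping bcn92), stood at 345 and 372 CPM in wild type, 167 and 165 with CTCF altered alone, 154 and 160 with Su(Hw) added, 59.4 and 66.4 with Pita added, and 59.7 and 73.0 with both added. It fell by 1.81 (SE 0.11, adjusted p = 3.96e-06), to one level in the genotypes without the Pita mutation and to a lower one in those with it (adjusted p among mutants = 5.62e-05).

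Zw, the glucose 6-phosphate dehydrogenase (X, 19667252 to 19672353, overlapping et), was likewise lower in the genotypes with the Pita mutation than in the mutants without it. It stood at 60.0 and 63.4 CPM in wild type, 26.9 and 34.1 with CTCF altered alone, 27.4 and 30.6 with Su(Hw) added, 17.5 and 17.1 with Pita added, and 16.0 and 18.5 with both added (log2 fold change -1.45, SE 0.12, adjusted p = 2.09e-05). Taldo, the transaldolase, stood at 598 and 592 CPM in wild type, 471 and 418 with CTCF altered alone and 111 to 243 in the other mutants (log2 fold change -1.54, SE 0.13, adjusted p = 3.59e-05). Its CTCF libraries were below both wild type libraries but closer to them than to the rest. The malic enzyme gene Men stood at 640 and 766 CPM against 224 to 635 (log2 fold change -0.91, SE 0.14, adjusted p = 0.00143), where the nearest mutant libraries were those of CTCF Su(Hw). CG8036, a transketolase, and Men-b, the mitochondrial malic enzyme, changed by -0.79 and -0.58 and were not called without wild type 2 and wild type 1, respectively. Rpi and Rpe, which interconvert the pentose phosphates, were called lower in the mean (log2 fold changes -1.01 with SE 0.12 and -0.84 with SE 0.14, adjusted p = 0.000273 and 0.0027) but were not shared: the CTCF mutant stood at 84.2 and 97.3 CPM for Rpi against 92.1 and 79.3 in wild type, and at 54.7 and 44.0 for Rpe against 46.2 and 43.2.

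In the lipid metabolism list, 6 of 15 tested genes were called lower and 2 higher, 4 were shared and lower, and the median was -0.12. These are 40% called lower and 26.7% shared, against 11.6% and 6.86% of all genes. With library totals 1 was shared and the median was 0.03. ATPCL, the citrate lyase that supplies acetyl-CoA for fat synthesis, stood at 589 and 666 CPM in wild type, 211 and 208 with CTCF altered alone, 379 and 387 with Su(Hw) added, 129 and 128 with Pita added, and 183 and 194 with both added. It fell by 1.58 (SE 0.11, adjusted p = 8.93e-06), and the CTCF Su(Hw) mutant moved least. SREBP, the transcription factor of lipid synthesis, stood at 196 and 209 CPM against 105 to 163 (log2 fold change -0.61, SE 0.12, adjusted p = 0.0056). Desat1, the main fatty acid desaturase, stood at 1699 and 1949 CPM against 856 to 1516 (log2 fold change -0.71, SE 0.13, adjusted p = 0.00372). FASN2, a fatty acid synthase, stood at 43.1 and 47.8 CPM against 13.1 to 37.4 (log2 fold change -0.85, SE 0.23, adjusted p = 0.0256). SREBP and Desat1 were not called without wild type 2, nor FASN2 without either wild type library or without CTCF Su(Hw) 1. FASN1 and ACC, a fatty acid synthase and the carboxylase that supplies it, were called lower in the mean (each -1.20) but were not shared, since a CTCF Su(Hw) library reached above wild type 1 (1605 against 1589 CPM for FASN1, and 407 against 394 for ACC).

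Further metabolic genes are named here after their values were seen, because they stayed called with all mutant libraries on one side under every alternative except the model with 1 mutant group. Gpdh1 and Gpo1, the cytosolic and mitochondrial enzymes of the glycerol phosphate shuttle, stood at 572 and 673 CPM in wild type against 136 to 407, and at 427 and 492 against 67.6 to 288 (log2 fold changes -1.36 with SE 0.15 and -1.58 with SE 0.12, adjusted p = 0.000175 and 1.44e-05). Inos, the inositol phosphate synthase, stood at 295 and 231 CPM against 53.1 to 145 (log2 fold change -1.67, SE 0.12, adjusted p = 1.35e-05). Aldh, the mitochondrial aldehyde dehydrogenase, stood at 2207 and 2160 CPM against 1770 and 1902 in the CTCF mutant and 647 to 1405 in the others (log2 fold change -1.02, SE 0.14, adjusted p = 0.000841). In Gpdh1, Gpo1 and Inos the genotypes with the Pita mutation were the lowest, and in Aldh the CTCF mutant alone was not called against wild type (log2 fold change -0.25, adjusted p = 0.507). In all, 80 shared genes, 22 higher and 58 lower, kept call and side under these 23 alternatives, among them Cpr78E, PGRP-SC1a, Tsp42Ep, Fbp1, Agpat2, Lcp3, Pgd, Zw, Taldo and ATPCL.

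**Figure D3:**
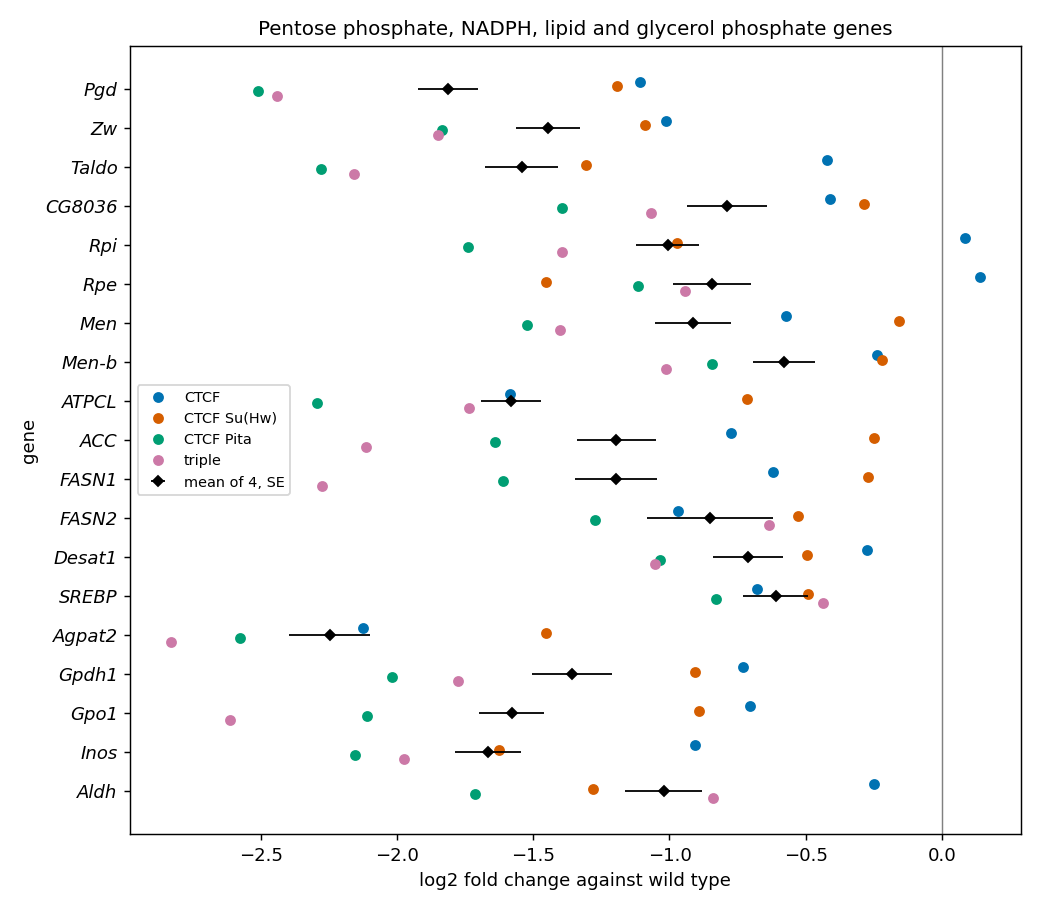
Log2 fold change against wild type of 19 genes of the pentose phosphate pathway, NADPH supply, lipid synthesis, the glycerol phosphate shuttle and related steps, with coloured points for the 4 mutant genotypes and black diamonds for their mean with its SE. All means are below 0, and for Rpi and Rpe the CTCF mutant lies just above 0.

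Several genes timed by the end of larval life differed between the wild type libraries as well as between wild type and mutants. Fbp1, the fat body receptor for larval serum protein that ecdysone induces (3L, 14094589 to 14098053), stood at 118 and 75.8 CPM in wild type, 424 and 836 with CTCF altered alone, 2668 and 2603 with Su(Hw) added, 3645 and 1634 with Pita added, and 1323 and 1900 with both added. It rose by 4.08 (SE 0.42, adjusted p = 0.000129), and by 4.43 and 3.77 without wild type 1 and 2. Of the 10 salivary glue genes tested, 6 were called higher and 1 lower, and the median was 2.83. Among them 4 were shared and higher (Sgs4, Sgs5, Sgs5bis and Sgs8). These are 60% called higher and 40% shared, against 8.22% and 6.86% of all genes. Sgs5 stood at 11.9 and 2.04 CPM in wild type against 29.3 to 866 (log2 fold change 4.83, SE 0.99, adjusted p = 0.00726), and Sgs4, whose span overlaps dnc, at 15.03 and 0.940 against 16.4 to 239 (3.29, SE 0.57, adjusted p = 0.00305). The lowest mutant library for Sgs4 was thus barely above wild type 1. Sgs5, Sgs5bis and Sgs8 were not called without wild type 2, and Sgs8 was also not called without any single library of the CTCF, CTCF Su(Hw) or CTCF Pita mutant.

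Ecdysone response genes showed the same direction at smaller size. Of 13 tested, 5 were called higher and none lower, 4 were shared and higher, and the median was 0.58, beside 8.22% called higher, 6.86% shared and a median of -0.02 over all genes. With library totals none of the 13 was shared. br, the Broad transcription factor, stood at 70.6 and 74.3 CPM against 91.3 to 216 (log2 fold change 0.82, SE 0.14, adjusted p = 0.00314). EcR, the ecdysone receptor, stood at 51.5 and 54.98 CPM against 61.2 to 105 (0.64, SE 0.15, adjusted p = 0.0118). E23, a transporter that dampens the hormone response, stood at 3.43 and 3.60 CPM against 3.76 to 30.0 (1.42, SE 0.38, adjusted p = 0.0231). The CTCF Pita libraries were the highest for br. For E23, CTCF Pita 1 was the highest (30.0 CPM), while CTCF Pita 2 (11.96 CPM) was below triple 1 (13.38 CPM). The CTCF libraries lay just above wild type for E23. Hr39, an orphan nuclear receptor, was called by a narrow margin (0.49, SE 0.16, adjusted p = 0.0462). Leaving out either wild type library ended the calls of EcR and E23, leaving out wild type 1 that of br, and Hr39 was called under few of the alternatives (9 of 23).

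The Osiris genes, active in epithelia that lay down cuticle, were lower, with 6 of 7 called, 2 shared and a median of -4.40. These are 85.7% called lower and 28.6% shared, against 11.6% and 6.86% of all genes. Osi9 stood at 36.4 and 1.57 CPM in wild type against 0 to 0.535 in the mutants, and Osi14 at 14.2 and 1.72 against 0.289 to 1.61. The mutants were below both wild type libraries but close to wild type 2, so that the changes of -5.63 (SE 0.80, adjusted p = 0.000948) and -3.44 (SE 0.60, adjusted p = 0.00316) became -2.05 and -1.25 without wild type 1 and were then not called. Of 64 cuticle protein genes tested, 41 were called lower and 2 higher (median -0.88). Among them 7 were shared and lower and 1, Cpr78E, was shared and higher. These are 64.1% called lower and 12.5% shared, again against 11.6% and 6.86% of all genes. The CTCF mutant had a cuticle median of 0.26 against -1.17 to -1.45 in the other genotypes. Adding the glue score of each library as a covariate for larval timing left 468 genes called and 121 shared, so 605 of the 726 lost their call. Cpr78E, PGRP-SC1a, Tsp42Ep, Fbp1, Agpat2, Lcp3, Pgd, Zw and ATPCL were among the 121; kn and Pxd were not. With this score higher in all mutants than in wild type, genotype and timing cannot be told apart by that fit.

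Heat shock genes and some digestive genes were also called higher. Of 16 heat shock genes tested, 10 were called higher (62.5%, against 8.22% of all genes) and none lower (median 2.21). The shared genes among them numbered 3 (18.8%, against 6.86% of all genes). Hsp70Bc, an inducible chaperone with near-identical copies among which reads are uncertain, had 0 and 1 read in wild type, 6 and 1 with CTCF altered alone, 337 and 314 with Su(Hw) added, 12 and 3 with Pita added, and 84 and 40 with both added. CTCF 2 and wild type 2 thus had 1 read each, and these libraries are told apart only by the scaling (0.253 against 0.157 CPM). Against wild type it was not called in the CTCF mutant (adjusted p = 0.238). Hsp83, the fly Hsp90, stood at 597 and 588 CPM against 658 to 912 without the Su(Hw) mutation and 1844 to 2201 with it (log2 fold change 1.09, SE 0.18, adjusted p = 0.002). Hsp23 stood at 27.3 and 21.5 CPM against 37.2 to 318 (2.07, SE 0.62, adjusted p = 0.0392), with CTCF Pita 1 and 2 at 318 and 43.6, and its call ended without either wild type library and without any library of the CTCF or the CTCF Su(Hw) mutant. Of 16 maltases, amylases and gut lipases, 7 were called higher (43.8%, against 8.22% of all genes) and 1 lower (median 1.19). All 4 shared ones were higher (25%, against 6.86% of all genes). Mal-A8 stood at 4.08 and 2.04 CPM against 4.55 to 73.4 (2.79, SE 0.33, adjusted p = 0.000338). With library totals 1 of these 16 genes was shared. Of 28 digestive proteases 4 were called higher (14.3%, against 8.22% of all genes) and 1 was shared (3.57%, below the 6.86% of all genes). Their median was 0.18, and it was -0.56 and -0.41 in the CTCF Su(Hw) and CTCF Pita mutants. The shared gene, Jon74E, stood at 80.4 and 78.8 CPM against 157 to 1475 (2.05, SE 0.38, adjusted p = 0.00406) and was not called without wild type 1.

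Bbd (bombardier), a secreted protein of the Toll response, rose from 18.1 and 23.2 CPM to 34.9 to 54.4 in the first 3 mutants and 160 and 226 in the triple mutant (log2 fold change 1.67, SE 0.18, adjusted p = 0.000158). It was the only shared gene among 29 antimicrobial peptide genes tested, of which 1 was called higher and 2 lower (3.45% shared, against 6.86% of all genes). The medians of that list ran from -2.19 in the CTCF mutant to 4.17 in the triple mutant. Of 11 peptidoglycan recognition genes, 3 were called higher (27.3%) and 2 were shared (18.2%), and of 5 lysozymes 3 (60%) and 2 (40%). Over all genes 8.22% were called higher, 11.6% were called lower and 6.86% were shared. Of 8 C-type lectins, 3 were called lower (37.5%) and 2 were shared (25%). Lectin-galC1, which was shared, stood at 82.8 and 84.6 CPM against 28.6 to 57.6 (-1.08, SE 0.13, adjusted p = 0.000366). Among 19 hemocyte genes, 2 were called higher (10.5%) and 6 lower (31.6%), and 15.8% were shared. PPO1, a prophenoloxidase of crystal cells, stood at 171 and 180 CPM against 40.8 to 149 (-0.89, SE 0.12, adjusted p = 0.000634).

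Of 71 cytochrome P450 genes, 12 were called higher and 8 lower, with 4 and 2 shared. The 8.45% shared and the 11.3% called lower are near the 6.86% and 11.6% of all genes. The 16.9% called higher compare with 8.22% of all genes. Cyp4e3 stood at 1.80 and 1.88 CPM against 3.66 to 43.2 (2.66, SE 0.21, adjusted p = 1.89e-05), and Cyp28a5 at 274 and 222 CPM against 72.03 to 220 (-1.004, SE 0.14, adjusted p = 0.000977). The mutant libraries nearest to wild type were those of the CTCF and CTCF Pita mutants for Cyp4e3 and those of the triple mutant for Cyp28a5. Of 30 UDP-glycosyltransferases, 3 were called in each direction (10% each, near the 8.22% higher and 11.6% lower of all genes). The 3 shared ones were lower (10%, against 6.86% of all genes). Of 32 glutathione S-transferases, 7 were called lower (21.9%) and 1 higher (3.12%), and 1 was shared (3.12%). The metallothionein MtnB stood at 28.1 and 24.6 CPM against 0.862 to 24.3 (-1.96, SE 0.20, adjusted p = 0.000107), with CTCF Pita 2 just below the lower wild type library.

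Neuronal genes were more often called higher and muscle genes lower. Of 29 neuronal genes tested, 13 were called higher (44.8%, against 8.22% of all genes) and none lower (median 0.52). The 6 shared ones made up 20.7%, against 6.86% of all genes. With library totals none was shared, and the median of the CTCF mutant was -0.11 with TMM factors. unc-13, which primes synaptic vesicles, stood at 14.7 and 14.4 CPM against 19.2 to 43.9 (0.80, SE 0.13, adjusted p = 0.00213), and Rim, a scaffold of the release site, at 1.96 and 2.66 against 3.29 to 8.10 (1.23, SE 0.32, adjusted p = 0.0222). The defining marker elav was called (0.52, adjusted p = 0.0396) without being shared, at 17.8 and 20.5 CPM in wild type and 15.9 to 43.4 in the mutants. Of 20 muscle genes, 14 were called lower (70%, against 11.6% of all genes) and none higher (median -0.60). The shared ones were up, Tm2 and Prm, parts of the sarcomere (15%, against 6.86% of all genes). Troponin T (up) stood at 5799 and 5566 CPM against 806 to 4188 (-1.08, SE 0.30, adjusted p = 0.0282), with triple 2 far below triple 1. Of 33 testis genes, 11 were called higher (33.3%, against 8.22% of all genes) and 3 were shared (dj, djl and fzo). For dj the levels were 0.490 and 0.157 CPM in wild type against 0.804 to 4.07 in the mutants. The testis list had a median of -0.73 in the CTCF mutant against 0.88 to 1.90 in the other genotypes, and its 9.09% shared compares with 6.86% of all genes. The sex of the larvae was not given, and its part in these values was not tested. Calls of Rim, dj and djl ended without either wild type library, of up without either wild type library, CTCF 1 or either CTCF Su(Hw) library, and of djl also without CTCF 1 or either CTCF Su(Hw) library. Tm2 and fzo were not called without wild type 1. Prm, the least stable of these, lost its call without either wild type library, CTCF 1, either CTCF Su(Hw) library or CTCF Pita 1.

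**Figure D4:**
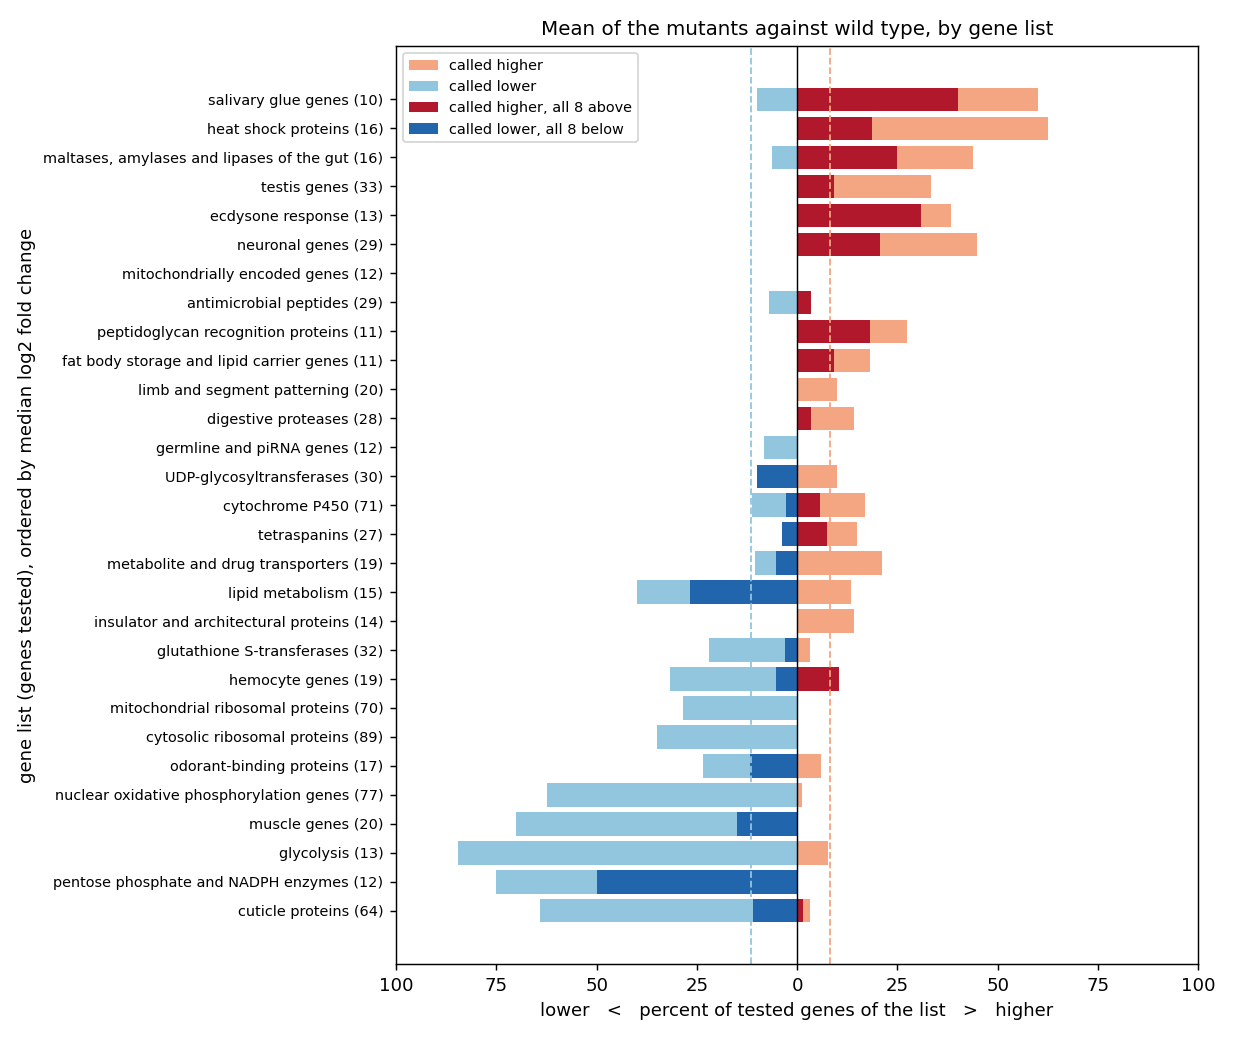
Percent of tested genes called higher (right) or lower (left) in each gene list with at least 10 tested genes, pale for all calls and dark for those with all 8 mutant libraries on one side; dashed lines mark the 8.22% and 11.6% of all genes. In glycolysis, oxidative phosphorylation and ribosomal protein genes many calls are lower but none of those lower calls is shared with these TMM factors, against 6, 8, 17 cytosolic and 3 mitochondrial with library totals.

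Some of the broadest falls in the mean were not shared, by a count that depends on the scaling. Of 89 cytosolic ribosomal protein genes, 31 were called lower (34.8%, against 11.6% of all genes) and none higher. Yet none of the 89 was shared with TMM or RLE factors. With library totals 17 were shared and lower. With TMM factors the shared genes also numbered 0 among 70 mitochondrial ribosomal protein genes (20 called lower, 28.6%). The same held for 77 nuclear oxidative phosphorylation genes (48 lower, 62.3%, and 1 higher) and 13 glycolysis genes (11 lower, 84.6%, and 1 higher). With library totals 3, 8 and 6 genes of these lists, in this order, were shared and lower. In each list the CTCF mutant had a median above 0 (0.39, 0.32, 0.54 and 0.27), while the medians of the other 3 genotypes were below 0 (-0.30 to -1.39). Beside these values, mitochondrially encoded RNA took 34.6% and 24.2% of assigned reads in the CTCF libraries and 8.67% to 18.7% in all others. With TMM factors the genotypes thus stood on both sides of wild type in these lists. Of 6 Hox genes and 14 insulator and architectural protein genes tested, none was shared, although su(Hw) and pita themselves were called in the mean.

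Variation among the mutants was wide for most genes. Across all genes tested, 5759 (54.4%) differed among the 4 mutant genotypes, in a test to which wild type adds nothing. Among the shared genes 417 of 726 differed and 309 did not pass. In 149 shared genes, 77 higher and 72 lower, the 4 genotype values lay within 0.5 of each other on the log2 scale, and in 73 they were more than 2 apart. The CTCF mutant was the genotype nearest to wild type in 421 of the 726, against 143, 71 and 91 for the CTCF Su(Hw), CTCF Pita and triple mutants. The genotype farthest from wild type was most often CTCF Pita (278) or the triple mutant (226). Of the 1374 called genes that were not on one side, 699 had only the CTCF mutant opposite in sign, and without that genotype 2775 genes would have been shared by the other 3.

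The shared genes with the strongest evidence of differences were CG3588, Cpr78Cc, Cyp4e3, CG5966 and Mal-A7. CG3588 (X, 2919770 to 2924426, inside the span of kirre) stood at 191 and 235 CPM in wild type, 39.4 and 34.9 with CTCF altered alone and 117 and 152 in the CTCF Pita mutant. It had 1 read with Su(Hw) added and 0 with both, at least 1020-fold lower in the latter with 3 reads over the group in place of 0. Cpr78Cc stood at 137 and 127 CPM in wild type, beside 113 and 127 with CTCF altered alone, against 16.4 to 24.3 in the other 3 genotypes, so that its place among the shared genes rests on a margin of under 1 CPM. CG5966 stood at 4.74 and 3.92 CPM in wild type, 8.39 and 7.08 with CTCF altered alone and 79.0 to 140 in the others. Mal-A7, a maltase gene, stood at 0.327 and 0.470 CPM in wild type, 0.506 to 1.16 in the CTCF and CTCF Pita mutants, 25.8 and 26.8 with Su(Hw) added, and 2.78 and 5.43 with both. For Mal-A7, CTCF 2 (0.506 CPM) was above wild type 2 (0.470 CPM) by less than the 0.253 CPM of a single read. The rule fixed the common direction of these 5 genes, and they were chosen because the size differed.

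The shared genes were spread over the chromosomes. They made up 5.94% of tested genes on X (99 of 1667), 7.63% on 2L (148 of 1939), 6.78% on 2R (144 of 2123), 6.06% on 3L (125 of 2064) and 7.28% on 3R (190 of 2610), against 6.86% overall. On chromosome 4, 13 of 77 were shared (16.9%) and all 13 were higher, where the median log2 fold change of all tested genes was 0.27. Among these were pan, Taf3, zfh2, onecut, Eph, Gat, unc-13, asRNA:CR44029, eIF4G1, PlexA, Cals and pho. pan, the TCF transcription factor of Wnt signalling, stood at 27.1 and 32.9 CPM against 40.2 to 56.4 (log2 fold change 0.70, SE 0.13, adjusted p = 0.00475), and Eph, a receptor tyrosine kinase, at 37.4 and 39.6 against 53.0 to 69.2 (0.65, SE 0.13, adjusted p = 0.00686). Neither differed among the mutants by the test (adjusted p = 0.17 and 0.732). The call of Eph ended without either wild type library and that of pan without wild type 1. Near the CTCF gene (3L, 7353578 to 7356713), the locus changed in every mutant, the share of such genes was 5.36% within 0.25 Mb (3 of 56), 5.75% within 1 Mb (10 of 174) and 6.22% within 2 Mb (23 of 370).

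**Figure D5:**
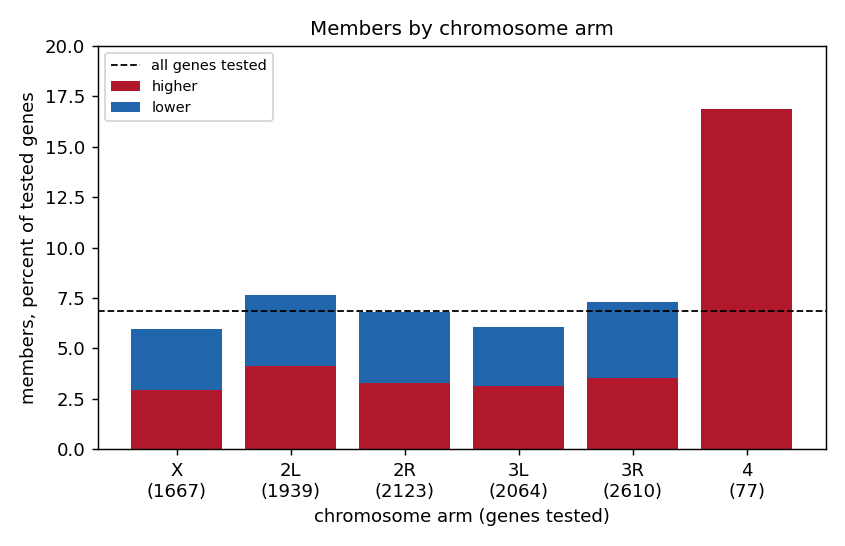
Shared genes as percent of tested genes on each chromosome arm, higher genes in red and lower genes in blue, with the number of tested genes under each arm; the dashed line is the 6.86% of all genes. The bars run from 5.94% on X to 7.63% on 2L, and chromosome 4 reaches 16.9% with higher genes alone.

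Neighbouring shared genes formed 53 stretches of 2 or more along the annotated order of tested genes, 7 of them with 3 or 4 genes. How many would form if the shared genes were scattered at random was not worked out, so this count does not measure clustering. The run Men, Ugt37A2 and Ugt37A3 (3R, 12713103 to 12743680) was lower in all its genes, and Sgs5bis, Sgs5 and CG7606 (3R, 17594386 to 17598453) were all higher. So were CG5968, CG31815 and CG4631 (2L, 16549181 to 16610037), and unc-13, asRNA:CR44029 and eIF4G1 (4, 867824 to 930715). Calls of CG31815, asRNA:CR44029 and eIF4G1 ended without either wild type library and that of CG4631 without wild type 1, and asRNA:CR44029 kept its call in 11 of 23 alternatives. The other 3 runs held genes of both directions. In the run Jhbp7, to and CG11854, to fell from 11.8 and 12.9 CPM to 4.17 to 8.97 (-1.07, SE 0.15, adjusted p = 0.000912) while its neighbour CG11854, overlapping bam, rose from 2.12 and 1.25 to 5.81 to 49.7 (3.496, SE 0.27, adjusted p = 1.44e-05). to encodes takeout, a secreted protein of feeding and circadian behaviour. Where genes of a run overlap on opposite strands, as unc-13 and asRNA:CR44029 do, unstranded reads do not separate them.

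At the border of the rule, Fs(2)Ket and AOX2 were just inside, with the nearest mutant and wild type libraries at 52.98 and 52.95 CPM and at 33.62 and 33.65 CPM. Just outside were Inx7, where CTCF Pita 1 (27.89 CPM) fell short of wild type 1 (27.93 CPM), and kdn, where CTCF 2 (624 CPM) exceeded wild type 1 (623 CPM). Hsp70Bb was also outside, since CTCF 2 and both wild type libraries had 0 reads. A call on one side or the other can thus turn on fractions of a CPM, and such genes resemble the shared ones in their other values.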

How the data were processed

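RNA of whole larvae was selected with oligo(dT) and sequenced as paired reads, per the labels' protocols (50 ng total RNA, NEBNext Ultra kit, 12 PCR cycles). Per the submitters' processing notes, cutadapt and STAR were used, with dm6; the sources used here give no versions, roles or annotation release. The authors deposited raw counts per gene and library. The unstranded counts were used, since 50.06% to 50.28% of stranded assignments fell on the forward strand. Names and dm6 positions came from the Ensembl annotation of the fly for 17597 of 17735 identifiers, and the other 138 were kept by identifier. Promoter sequence was not used here.

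Genes were filtered with filterByExpr (10585 kept, with at least 99.66% of reads), scaled by TMM (factors 0.553 to 1.35) and fitted with edgeR 4.0.16 (R 4.3.3) as 5 groups. The fit left 5 residual degrees of freedom, its prior had a median of 6.22, and variation between libraries was 15.9% (biological coefficient). The contrast was the mean of the 4 mutant groups minus wild type. A joint F-test of 3 contrasts asked whether the mutants differed. Both used Benjamini-Hochberg adjustment over all genes, at 0.05, two-sided. Labels do not say whether libraries came from separate larvae pools, so p-values measure the spread between libraries, which may be technical. Correlations of same-numbered libraries' deviations ran from -0.149 to 0.153, so the numbers were not taken as pairs.

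Genes named are the first 12 in each direction with a given name, and the first 4 of any name, among shared genes with at least 5 CPM, ranked by the genotype that moved least. Added to these were up to 4 shared genes per list, the 5 with the smallest p among mutants, runs of 3 or more neighbours, the 8 of the model with 1 mutant group and genes stated as chosen after their values were seen. The members, gene lists and this rule were chosen with earlier results of these data known. Where a group had 0 reads, a fold is a bound with 3 reads over the group in its place. DESeq2 1.42.0 and other alternatives are in the closing section.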

Additional observations from a re-analysis of the deposited data

Results flagged for a closer look

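Groups of 2 libraries are too small to look for a single library far from its group. Of 35 shared genes named in the text by rule, 24 differed in size between the 4 mutant genotypes when this difference was itself tested (edgeR's quasi-likelihood F-test, Benjamini-Hochberg adjustment over all genes), although all 8 mutant libraries lay on one side of wild type. Across all genes 54.4% passed this test, so passing it is common. Among the higher genes the adjusted p was 1.49e-05 for PGRP-SC1a, 1.44e-05 for Hsp70Bc, 0.00103 for Tsp42Ep, 0.00604 for Fbp1, 0.00915 for Sgs5, 0.0145 for NimC2, 6.98e-05 for SPH93, 5.93e-05 for Amyrel, 0.00279 for Sgs4, 0.0353 for Sgs5bis, 0.0233 for LysE and 0.0288 for CG7255. PGRP-SC1a was highest with the Pita mutation, Hsp70Bc with the Su(Hw) mutation, Amyrel in the CTCF Su(Hw) mutant and SPH93 in the triple mutant. Among the lower genes it was 0.00152 for Agpat2, 5.62e-05 for Pgd, 0.00192 for Zw, 0.00151 for SLO2, 0.0003 for Ugt37A3, 0.00958 for CG10814 and 0.00178 for CG13230. Agpat2, Pgd, Zw and CG13230 were lowest in genotypes with the Pita mutation. The 5 genes chosen for this difference had 1.43e-07 for CG3588, 6.06e-07 for Cpr78Cc, 8.96e-07 for Cyp4e3, 1.44e-06 for CG5966 and 2.81e-06 for Mal-A7. The other 11 genes did not pass, which does not show that their genotypes act alike.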

How the results depend on the processing

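Of 2100 genes called, 1053 on one side and 726 shared, the counts became 1147, 729 and 419 with library totals, 468 called and 121 shared with the glue score as covariate, and 8 and 8 with 1 mutant group. Without the CTCF mutant they were 3690, 3524 and 2775, and the genes differing among mutants fell from 5759 to 2776. Calls numbered 1026 without the CTCF Su(Hw) mutant, 1277 without the CTCF Pita mutant and 1321 with the CTCF Su(Hw) libraries summed. Leaving out single libraries gave 678 (without wild type 1) to 2813 calls, 1096 to 2165 genes on one side and 410 to 908 shared. Calls were 756 without wild type 2 and 1314 and 1294 without CTCF Su(Hw) 1 and 2. Genes differing among mutants ran from 4194 to 6224. With the replicate number as a block there were 1814 calls and 654 shared genes, 648 of them the same. The causes of these shifts were not tested. RLE factors, nuclear library sizes, both filters, DESeq2 (1578 called, 535 shared) and the fit without the triple mutant stayed within 1.5 times for calls and shared genes. The glue covariate turned Sgs5bis to -0.41, Sgs8 to -0.76, CG7606 to -0.53 and asRNA:CR44029 to -0.046, none of them called. Sgs5bis and Sgs8 are themselves part of the glue score, so a loss of their change with this covariate is built into the fit. Depth limits low genes, since 0 reads allow up to 0.278 to 0.868 CPM in a library.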

Other observations

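Further shared genes, chosen here after their values were seen, fell outside the groups above. 5-HT2A, a serotonin receptor gene, stood at 34.1 and 42.3 CPM in wild type, at no less than 7.42 CPM in the CTCF and CTCF Pita mutants, and at 0.201 to 1.92 in the genotypes with the Su(Hw) mutation. It fell by 3.40 on the log2 scale (SE 0.19, adjusted p = 1.93e-06 in edgeR's quasi-likelihood test). In the genotype that moved least the fall was 0.79. All 8 mutant libraries were below wild type, with the lowest levels where Su(Hw) was altered. Noc2, a nucleolar protein of ribosome assembly, stood at 42.3 and 37.6 CPM against 10.65 or more in the mutants, all below wild type (log2 fold change -1.49, SE 0.11, adjusted p = 1.44e-05). Its fall was 0.91 in the genotype that moved least. Acp1, an adult cuticle protein gene, stood at 20.8 and 23.3 CPM against 0.321 to 13.6 (log2 fold change -2.35, SE 0.27, adjusted p = 0.000259). Tret1-1, a trehalose transporter, stood at 251 and 264 CPM against 126 to 218 (log2 fold change -0.69, SE 0.13, adjusted p = 0.00372) and was not called with library totals.

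Within 1 Mb of the CTCF gene, 7 shared genes were higher and 3 lower. The largest change with a call under all 23 alternatives was that of CG8492, inside the span of CG32373, at 13.9 and 16.9 CPM in wild type against 27.1 to 66.95 (log2 fold change 1.42, SE 0.18, adjusted p = 0.000455). nmo, a kinase of Wnt signalling and planar polarity, stood at 14.9 and 20.1 CPM against 24.02 to 55.7 (log2 fold change 0.99, SE 0.16, adjusted p = 0.00177).

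The lists not described above had 3 shared genes or fewer. The shared genes were 3 of 27 tetraspanins (11.1%), 2 of 17 odorant-binding proteins (11.8%) and 1 of 19 metabolite and drug transporters (5.26%). Further ones were 1 of 11 fat body storage genes (Fbp1, 9.09%), 1 of 5 metallothioneins (20%) and 1 of 3 Turandot genes (33.3%). None was shared among 20 limb and segment patterning genes, 12 germline and piRNA genes or 12 mitochondrially encoded genes. Of all genes tested, 6.86% were shared.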
